A study of Mus musculus with 5 samples.

Results

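Radial glia and neural progenitor cells are commonly recognised by a set of structural and membrane proteins, and 10 genes of such proteins are described here: Nes, Vim, Fabp7, Fabp5, Prom1, Msi1, Msi2, Gpm6a, Gpm6b and Cd24a. They were taken as every non-control probe whose gene name in the array files equals one of these symbols. That gave 12 of 55681 probes and 10 of 36163 gene names. Prom1 and Msi1 had 2 probes each, and the other 8 genes had 1 probe each. The rule uses gene names and no measured value, but the genes were chosen with earlier results of these data known. Counts of members beside the share of all probes are therefore description and not a test. All 12 passed the filter on dim probes, 9 of them because they were well above background on all 5 arrays. The others, of Gpm6a and Prom1, were dim on the fibroblast array and passed through the groups in which they read high. Prom1 A_52_P402786 passed through the brain-derived progenitors alone.

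The study hybridised total RNA of mouse cells to 5 single-colour Agilent expression arrays, 1 array per sample, to ask how closely chemically induced neural progenitor cells match progenitors from brain. MEF (1 array) are mouse embryonic fibroblasts, NPC (1 array) are neural progenitor cells derived from brain and serve as the control, and ciNPC (3 arrays) are neural progenitor cells induced with chemicals and low oxygen, at passage 5 (p5, 1 array) or passage 13 (p13, 2 arrays). All samples are described as primary cells. The labels used here give no strain, age, sex or number of animals, embryos or cultures behind a sample, and leave unsaid whether the p13 replicates are separate cultures. The p-values below therefore cover the spread between these arrays alone, and that spread may be technical.

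During brain development radial glia are the progenitors that line the ventricle and send a long process to the surface of the brain. They carry the intermediate filament proteins nestin and vimentin and the brain lipid-binding protein FABP7, they express the Musashi RNA-binding proteins, and their apical membrane holds prominin-1 (CD133). Several of these genes are not confined to the neural lineage: vimentin is the main intermediate filament of fibroblasts, FABP5 is made in many proliferating cells, and CD24 is found on immature neurons and many epithelia as well as on progenitors.

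Levels are given as log2 of the processed signal relative to the 75th percentile of the array, so that 0 is the brightness of that percentile and a difference of 1 is 2-fold. Values of different probes depend on how each probe binds and were not set against each other. A probe passed a comparison at a Benjamini-Hochberg adjusted p under 0.05 in limma if it also changed 2-fold or more, and "higher" and "lower" in counts mean passing. All 60 spots of the 12 probes were free of outlier flags, and 54 were well above background. The error that the scanner software gives was at most 19.8% of the signal for these 54.

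Across the 5 arrays the share of spots well above background ran from 47.9% to 57.6%, no spot was saturated, and 1 array, ciNPC p13 replicate 2, had a spike-in slope (0.803) that the software marks as out of range. MEF and NPC shared slide 1 and the ciNPC arrays shared slide 2. In every ciNPC comparison with MEF or with NPC, cell type and slide therefore cannot be told apart. The comparison of NPC with MEF and that of the passages are each within 1 slide. Of 8 neural progenitor markers, 8 were well above background on NPC and on each ciNPC array and 4 on MEF. Of 11 fibroblast markers, 11 were well above background on MEF and on each ciNPC array and 6 on NPC. The summed signal of these 11 was 1711 times the 75th percentile on MEF, 169 to 232 times on the ciNPC arrays and 2.62 times on NPC.

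The arrays read 60-base probes, and where a probe sits decides which transcripts it counts. On mm9, the build of the files, the Nes probe is at chr3:87784303-87784362, the Gpm6b probe at chrX:162826765-162826824 and the Prom1 probe A_55_P2059931 at chr5:44384861-44384920. Each of these 3 holds the polyadenylation hexamer AATAAA on the strand of its transcript. The 30 bases around it are shown because this hexamer usually lies close to the 3′ end of a transcript, and the capitals mark it.
Nes: ctctcttcctcccttgAATAAAgctgtatc
Gpm6b: attcaagtgttacAATAAAtatttgtagat
Prom1 A_55_P2059931: gttgagatttaaAATAAAgcatgaatgaac

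In each gene with more than 1 probe, 1 probe lies upstream of the other on the strand of its transcript. Prom1 probe A_52_P402786 is at chr5:44397410-44397469 on the minus strand, 12489 bases from A_55_P2059931. Msi1 probe A_55_P2062688 is at chr5:115890516-115890575 on the plus strand, 13454 bases from Msi1 probe A_51_P296866 at chr5:115904030-115904089. Both are printed whole because each gene is read at more than 1 place, and the readings are described with each gene.
Prom1 A_52_P402786: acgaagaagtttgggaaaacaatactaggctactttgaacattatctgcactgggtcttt
Msi1 A_55_P2062688: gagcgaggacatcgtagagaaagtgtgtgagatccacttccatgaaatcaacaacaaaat

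The remaining probes are at chr2:13504232-13504291 (Vim), chr10:57508039-57508098 (Fabp7), chr3:10016185-10016244 (Fabp5), chr11:88152912-88152971 (Msi2, minus strand), chr8:56145539-56145598 (Gpm6a) and chr10:43303706-43303765 (Cd24a). Gene models of mm9 were not used here, so exon or UTR is not stated for any probe.

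In ciNPC, 7 of the 12 probes, from 7 of the 10 genes, were higher than in MEF and none was lower, where 12.5% of all 35613 probes tested were higher. These were the probes of Nes, Fabp7, Msi2, Gpm6a, Gpm6b and Cd24a and 1 of the Prom1 probes. The filament gene Vim, the lipid-binding gene Fabp5 and both probes of Msi1 did not pass, and neither did Prom1 probe A_52_P402786. The median difference of ciNPC from MEF over the 12 probes was 1.92, and over all probes tested it was -0.09. In bulk RNA such as this, fewer cells of a type and less RNA per cell cannot be told apart.

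**Figure D1:**
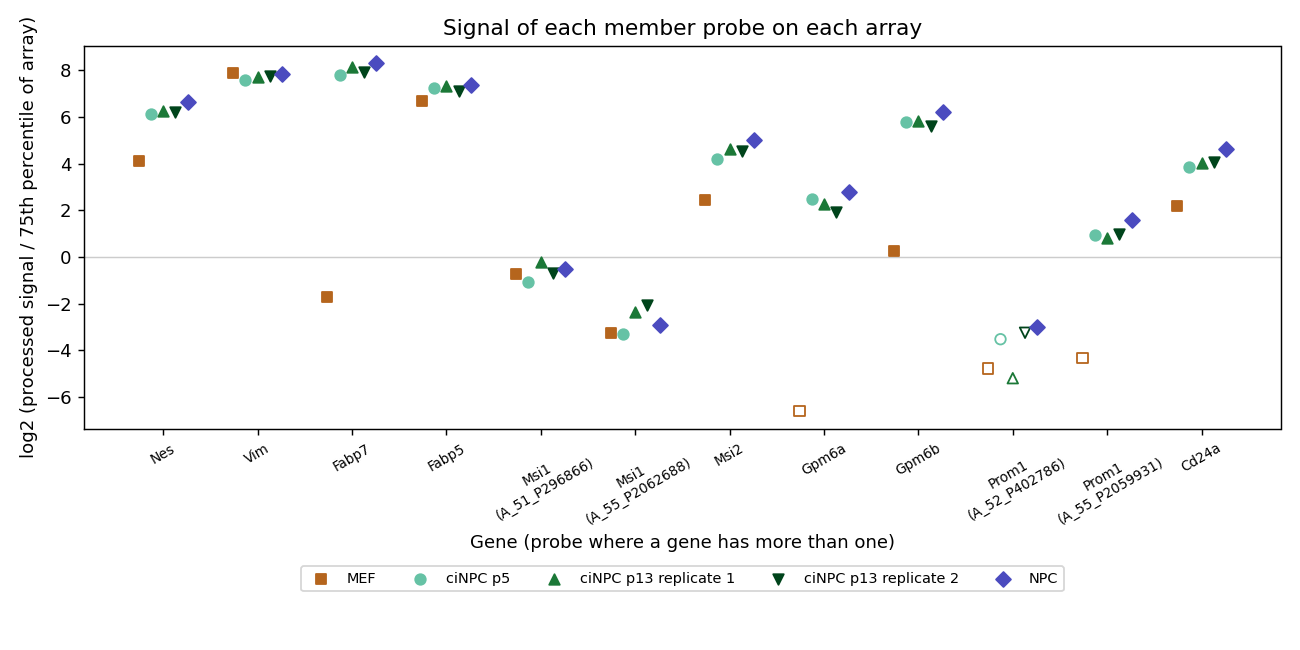
Level of each of the 12 probes on each of the 5 arrays (vertical axis, log2 of processed signal over the array's 75th percentile; 1 symbol per array, grouped by gene along the horizontal axis). Open symbols are spots not well above background, and heights may be compared within a probe only. The MEF square lies well under the other symbols for Nes, Fabp7, Msi2, Gpm6a, Gpm6b, Prom1 A_55_P2059931 and Cd24a, whereas for Vim the 5 arrays lie between 7.56 and 7.87.

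Among the filament genes, Nes encodes nestin, the intermediate filament protein used most widely to mark neural progenitors. Its level was 4.09 in MEF, 6.13 in ciNPC p5, 6.26 and 6.21 in the p13 replicates and 6.62 in NPC. MEF was thus lowest but still clearly detected, the 3 ciNPC arrays lay within 0.14 of each other, and NPC was above all of them. The ciNPC mean was 6.20 ± 0.07 (SD, n = 3), which is 4.31-fold above MEF. In limma the log2 difference was 2.11 (SE 0.12, 95% interval 1.81 to 2.40, adjusted p = 7.07e-05).

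Vim, the vimentin gene, is the partner of nestin in progenitor filaments and the main filament gene of fibroblasts. It read 7.87 in MEF, 7.56 in ciNPC p5, 7.72 and 7.74 in the p13 replicates and 7.84 in NPC. MEF and NPC differed by 0.04, and the ciNPC arrays lay slightly under both. The log2 difference of ciNPC from MEF was -0.20 (95% interval -0.54 to 0.15, adjusted p = 0.348 in limma), and under quantile normalisation it was 0.28. The intervals of both comparisons stay inside 2-fold.

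Fabp7 encodes the brain lipid-binding protein of radial glia, which binds long-chain polyunsaturated fatty acids. It read -1.73 in MEF, 7.78 in ciNPC p5, 8.14 and 7.93 in the p13 replicates and 8.29 in NPC. In processed signal that is 174 in MEF against 106230 to 135305 in the ciNPC arrays and 192185 in NPC. MEF and the other 4 arrays are therefore far apart, and the MEF spot was itself above background. The ciNPC mean of 7.95 ± 0.18 (SD, n = 3) was 823-fold above MEF, the 10th highest difference of all 35613 probes (9.69, SE 0.16, adjusted p = 9.20e-07 in limma).

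Fabp5, the epidermal fatty acid-binding protein gene, is a close relative of Fabp7 with a much broader expression. It read 6.69 in MEF, 7.25 in ciNPC p5, 7.32 and 7.11 in the p13 replicates and 7.38 in NPC. All ciNPC arrays were above MEF and under NPC, within a narrow range. The log2 difference from MEF was 0.54 (SE 0.14, 95% interval 0.20 to 0.88), with an adjusted p of 0.0251 in limma but under 2-fold, so it did not pass. A probe named Fabp5l2, a near copy of Fabp5, read 6.79 in MEF, 7.29 to 7.60 in the ciNPC arrays and 7.61 in NPC. The longest run of bases it shares with the Fabp5 probe is 8, yet transcripts of such copies may bind either probe, so the Fabp5 values are uncertain to that extent.

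The Musashi genes encode RNA-binding proteins that regulate translation in progenitors. Msi2 read 2.44 in MEF, 4.21 in ciNPC p5, 4.63 and 4.56 in the p13 replicates and 5.02 in NPC. The order was MEF, p5, p13, NPC, with the p13 replicates 0.07 apart. The ciNPC mean was 4.47 ± 0.22 (SD, n = 3), which is 4.08-fold above MEF (log2 difference 2.03, SE 0.18, 95% interval 1.60 to 2.46, adjusted p = 0.000335 in limma). A further probe, named LOC100504473, carries an accession that the reference table lists under Msi2. It was well above background on 2 arrays only.

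Msi1, the founding mammalian Musashi gene and a usual marker of neural stem cells, showed no such step. Probe A_51_P296866 read -0.72 in MEF, -1.06 in ciNPC p5, -0.21 and -0.67 in the p13 replicates and -0.52 in NPC. Probe A_55_P2062688, whose sequence is printed above, read -3.25 in MEF, -3.28 in ciNPC p5, -2.37 and -2.05 in the p13 replicates and -2.90 in NPC. On both probes the ciNPC arrays lay on either side of MEF, and NPC was 0.21 and 0.35 above MEF. The differences of ciNPC from MEF were 0.08 (95% interval -0.77 to 0.93, adjusted p = 0.896) and 0.68 (95% interval -0.82 to 2.18, adjusted p = 0.463) in limma. The first interval stays inside 2-fold, whereas the second reaches beyond 4-fold.

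Gpm6a and Gpm6b encode the M6 proteolipids, membrane proteins that cross the membrane several times. Gpm6a read -6.60 in MEF, not well above background, 2.46 in ciNPC p5, 2.28 and 1.94 in the p13 replicates and 2.79 in NPC. Its ciNPC mean of 2.23 ± 0.27 (SD, n = 3) was at least 91.9-fold above MEF, counted against the lowest signal well above background on the MEF array (adjusted p = 5.00e-06 in limma). Gpm6b read 0.25 in MEF, 5.77 in ciNPC p5, 5.82 and 5.61 in the p13 replicates and 6.22 in NPC. Its MEF spot was above background, and the ciNPC mean of 5.73 ± 0.11 (SD, n = 3) was 44.7-fold above it (log2 difference 5.48, SE 0.13, 95% interval 5.17 to 5.80, adjusted p = 3.09e-06 in limma). For both M6 genes MEF stood apart from the other 4 arrays.

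Of the surface markers, Prom1 encodes prominin-1, a protein of membrane protrusions and the antigen known as CD133. Probe A_55_P2059931, at the hexamer, read -4.32 in MEF, not well above background, 0.96 in ciNPC p5, 0.80 and 0.97 in the p13 replicates and 1.57 in NPC. The ciNPC mean of 0.91 ± 0.10 (SD, n = 3) was at least 36.8-fold above MEF (adjusted p = 1.73e-05 in limma). Probe A_52_P402786 was well above background on NPC alone, at -2.98, and read -4.77 in MEF, -3.52 in ciNPC p5 and -5.19 and -3.24 in the p13 replicates. NPC was at least 2.49-fold above MEF on that probe, and no fold is given between ciNPC and MEF because both were under background. The probes of this gene thus disagreed on whether a difference from MEF could be measured.

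Cd24a encodes the mucin-like surface protein CD24. It read 2.18 in MEF, 3.87 in ciNPC p5, 4.03 and 4.08 in the p13 replicates and 4.64 in NPC. MEF was lowest, NPC highest, and the ciNPC arrays lay between them without overlap. The ciNPC mean was 3.99 ± 0.11 (SD, n = 3), 3.50-fold above MEF (log2 difference 1.81, SE 0.13, 95% interval 1.49 to 2.13, adjusted p = 0.000166 in limma). Transcripts of Cd24a copies elsewhere in the genome could add to this signal and were not separated from it.

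NPC against MEF lies within slide 1 and has 1 array on each side, so it is described without a test. NPC was at least 4-fold over MEF on 7 of the 12 probes, where 6.78% of all probes tested were, and on none was MEF 4-fold over NPC. All 7 are probes that were also higher in ciNPC. In log2 terms NPC exceeded MEF by 10.03 on the Fabp7 probe, 5.98 on Gpm6b, 2.58 on Msi2, 2.53 on Nes and 2.45 on Cd24a. Against a MEF spot under background, NPC was at least 136-fold higher for Gpm6a and at least 58.2-fold higher for Prom1 A_55_P2059931. Fabp5 stood 0.70 above MEF and Vim 0.04 under it. The comparisons with MEF share the MEF array.

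Set against NPC, none of the 12 probes passed, where 2.78% of all probes tested did (limma). Of those that did, 972 were higher and 19 lower. At an unadjusted p under 0.05 there were 5 member probes, those of Nes, Msi2, Gpm6b and Cd24a and Prom1 A_55_P2059931, where 13.5% of all probes were under it. All 5 were under NPC. On all 3 ciNPC arrays the level was under that of NPC for each of the 7 probes on which NPC exceeded MEF at least 4-fold. The choice of probes high on the NPC array favours such an order, and 77.3% of all 2416 probes chosen that way showed it. Of the 12 probes, 11 had a ciNPC mean under NPC (10 under quantile normalisation), as had 61.2% of all probes tested. The 11 include Prom1 A_52_P402786, which passed the filter through NPC alone. The median difference was -0.46, or -0.38 with dim values raised to the lowest signal well above background on their array. Over all probes tested, without that step, it was -0.12.

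The widest gap to NPC among well measured probes was that of Prom1 A_55_P2059931, at -0.66 (SE 0.20, 95% interval -1.15 to -0.17, adjusted p = 0.224 in limma). Cd24a followed at -0.64 (SE 0.13, 95% interval -0.97 to -0.32), with the lowest adjusted p of the 12 probes, 0.0689 in limma. Gpm6a was at -0.56 (95% interval -1.13 to 0.01), Msi2 at -0.55 (95% interval -0.98 to -0.12) and Gpm6b at -0.49 (95% interval -0.81 to -0.17). The intervals of Prom1 A_55_P2059931 and Gpm6a reach past 2-fold, and those of Cd24a, Msi2 and Gpm6b end inside it.

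Nes was at -0.42 against NPC (95% interval -0.72 to -0.13, adjusted p = 0.200 in limma) and Fabp7 at -0.34 (95% interval -0.73 to 0.05, adjusted p = 0.435 in limma). Vim was at -0.16 (95% interval -0.51 to 0.18) and Fabp5 at -0.16 (95% interval -0.50 to 0.18, and 0.01 under quantile normalisation). The intervals of these 4 genes lie inside 2-fold. The Msi1 probes were at -0.13 (95% interval -0.98 to 0.72) and 0.33 (95% interval -1.16 to 1.83). On Prom1 A_52_P402786 NPC was at least 1.15-fold above ciNPC, which was not well above background on any of its arrays (adjusted p = 0.700 in limma).

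The adjusted p of these differences depended on the fit. With passages as separate groups (4 groups), all 7 NPC-high probes, those on which NPC exceeded MEF at least 4-fold, had an adjusted p between 6.61e-06 (Cd24a) and 0.0341 (Fabp7) in limma. Without ciNPC p5, 5 of the 7 were under 0.05, those of Nes, Msi2, Gpm6a, Gpm6b and Cd24a. In both fits each of these differences stayed under 2-fold, and for that reason none passed. The spread in both came from the p13 arrays alone. At an unadjusted p under 0.05 in limma there were 7 of the 12 member probes in each. Of all 35613 probes, 9347 were under it with 4 groups and 8538 without ciNPC p5, against 4821 in the main fit. The share of all probes with an adjusted p under 0.05 is not given here. As above, choosing probes high on NPC favours a level under NPC.

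**Figure D2:**
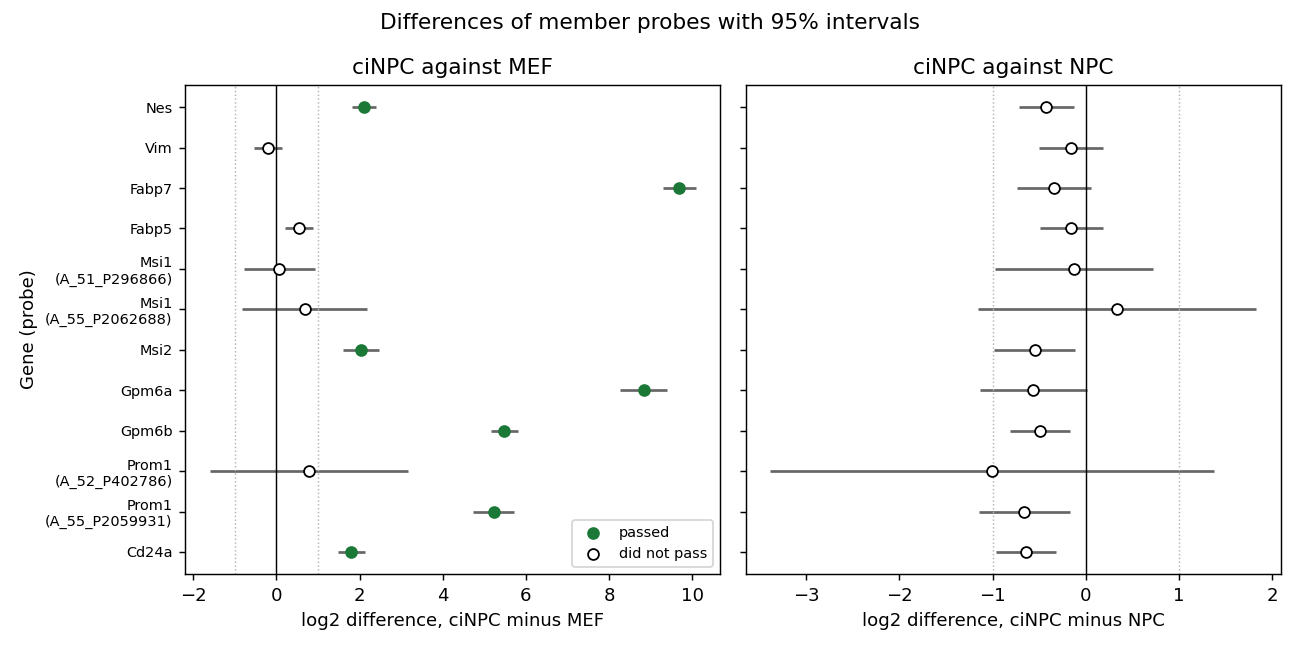
Log2 difference of the ciNPC mean from MEF (left) and from NPC (right) for each of the 12 probes, with 95% intervals from limma and dotted lines at 2-fold. Filled symbols passed. The 7 filled symbols on the left run from Cd24a at 1.81 to Fabp7 at 9.69, and no symbol is filled on the right. Gpm6a and both Prom1 probes rest on a MEF spot that was not well above background, so their left-hand positions are measured values and not bounds.

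As a share of the NPC signal, the ciNPC mean of the 7 probes ran from 63.2% for Prom1 A_55_P2059931 and 64.0% for Cd24a, through 67.8% for Gpm6a, 68.3% for Msi2 and 71.1% for Gpm6b, to 74.6% for Nes and 79.0% for Fabp7. Single arrays varied more than these means, since Gpm6a reached 79.7% in ciNPC p5 and 55.4% in p13 replicate 2, and Fabp7 70.1% in p5 and 90.3% in p13 replicate 1. The median share of the 7 was 68.3%. Over all 2416 probes on which NPC exceeded MEF at least 4-fold it was 72.9%, with quartiles at 65.5% and 81.2%. Of the 7, 5 lay between these quartiles, and Prom1 A_55_P2059931 and Cd24a lay just under the lower one. Under quantile normalisation the order turned, with 75.5% for the members and 74.5% for all such probes.

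**Figure D3:**
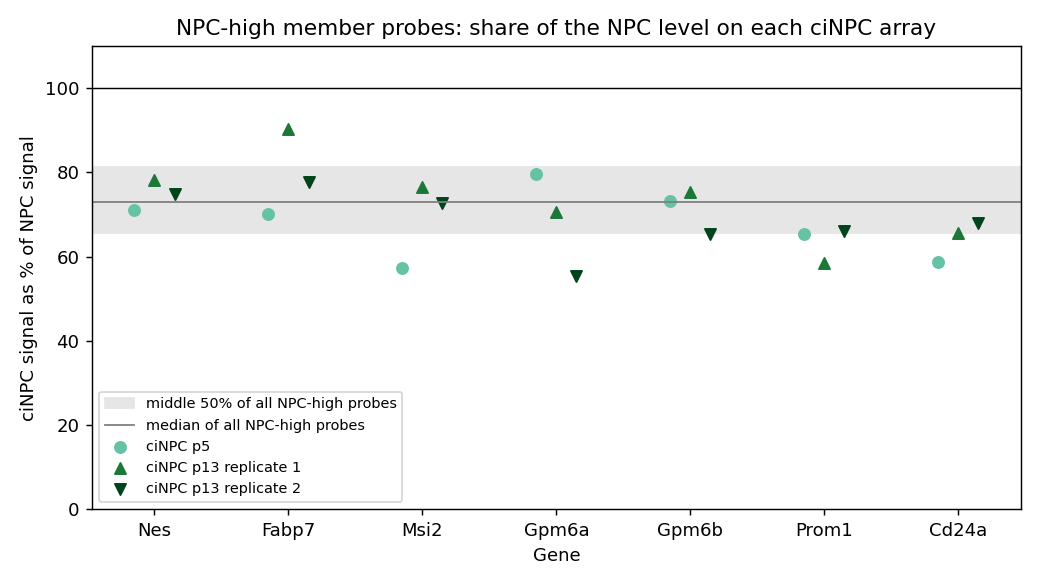
Signal of each ciNPC array as a percentage of the NPC signal (vertical axis) for the 7 NPC-high probes. The line and band are the median (72.9%) and middle 50% (65.5% to 81.2%) over all 2416 such probes, from the mean of the ciNPC arrays. All points lie under 100%, and they run from 55.4% (Gpm6a, p13 replicate 2) to 90.3% (Fabp7, p13 replicate 1).

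On a log2 scale from MEF (0) to NPC (1), with dim values raised to the lowest signal that was well above background on their array, the ciNPC arrays averaged 0.97 ± 0.02 for Fabp7, 0.92 ± 0.02 for Gpm6b, 0.92 ± 0.04 for Gpm6a and 0.89 ± 0.02 for Prom1 A_55_P2059931. Nes stood at 0.83 ± 0.03, Msi2 at 0.79 ± 0.09 and Cd24a at 0.74 ± 0.04 (SD, n = 3 throughout). The last of these genes are those with the smallest step from MEF to NPC, so a similar gap to NPC takes up more of their scale.

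Between passages none of the 12 probes passed, where 0.831% of all probes tested did (limma, with 1 residual degree of freedom). At an unadjusted p under 0.05 there were 4 member probes, where 18.7% of all probes were under it. Msi2 was 0.38 higher at p13 than at p5 (SE 0.10, 95% interval 0.18 to 0.58), with an adjusted p of 0.0157 in limma but under 2-fold. That adjusted p rose over 0.05 with normexp background correction, under quantile normalisation and in the deposited value table. It also did with probes well above background on all 5 arrays and with eBayes without trend. With the other alternatives that had a test it stayed under 0.05. Fabp7 was 0.26 higher (95% interval 0.02 to 0.50, adjusted p = 0.225 in limma) and Gpm6a 0.35 lower (95% interval -0.69 to -0.01, adjusted p = 0.249 in limma).

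Nes, Vim, Fabp5, Gpm6b and Cd24a differed by 0.18 or less between passages, with intervals inside 2-fold. Prom1 A_55_P2059931 was at -0.07 (95% interval -0.47 to 0.32). The Msi1 probes were 0.62 (95% interval 0.09 to 1.15, adjusted p = 0.170) and 1.08 (95% interval -0.29 to 2.44, adjusted p = 0.427) higher at p13 in limma. Those intervals reach past 2-fold, so a passage difference in Msi1 was not resolved by 3 arrays. The p13 replicates themselves differed by less than the median over all probes (0.24) on 8 of the 12 probes, and most on Prom1 A_52_P402786, at 1.95, which is under background there.

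Promoter sequence was available for 7 of the 10 genes, as 11 windows of 250 bases just upstream of an annotated start in RefSeq (GRCm38.p6). Those of Fabp7 and Gpm6b are shown because these genes gave the widest steps from MEF among probes measured on all arrays. On both strands the windows were searched for TGGGAA, the core bound by the Notch effector RBPJ, for AACAAT or ACAAAG, core letters bound by Sox factors, for CAGCTG, an E-box, and for TATAAA. The Fabp7 window, chr10:57784673-57784922 on the plus strand, holds TGGGAA once on the opposite strand. The Gpm6b window, chrX:166238693-166238942 on the plus strand, holds ACAAAG once. Capitals mark these matches.
Fabp7 promoter: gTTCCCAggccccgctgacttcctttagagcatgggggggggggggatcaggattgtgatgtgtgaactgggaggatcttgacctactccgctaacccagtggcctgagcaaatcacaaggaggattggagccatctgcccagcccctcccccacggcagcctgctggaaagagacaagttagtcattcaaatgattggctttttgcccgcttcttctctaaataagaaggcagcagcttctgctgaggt
Gpm6b promoter: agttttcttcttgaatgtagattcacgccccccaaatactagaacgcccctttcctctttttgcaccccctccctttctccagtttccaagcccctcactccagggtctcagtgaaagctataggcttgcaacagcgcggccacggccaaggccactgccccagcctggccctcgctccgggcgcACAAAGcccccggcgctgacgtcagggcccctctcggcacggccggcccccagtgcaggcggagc

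Matches of this kind are common. TGGGAA occurs in 21.6% of the 32851 windows of the same length, AACAAT or ACAAAG in 24.0%, CAGCTG in 13.0% and TATAAA in 12.4%. Among the other members, Prom1 had 1 TGGGAA match in 1 of its 2 windows, Gpm6a 1 Sox-type match and 1 TATAAA in separate windows, and Vim 1 TATAAA, whereas the Nes and Msi2 windows held none of these motifs. The base composition varied widely, with a G+C share of 33.6% in 1 Gpm6a window and 75.6% in 1 Msi2 window, and a median of 52.4% over all windows. These are descriptions of letters and not of binding.

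Genes near the members in function were described from lists, using for each gene the probe with the highest mean. The lists, too, were chosen with earlier results of these data known. Of 25 other radial glia and progenitor genes, 18 were higher and 1 lower in ciNPC than in MEF, where 12.5% of 25222 genes were higher and 12.5% lower. The highest were Bcan, a proteoglycan of brain extracellular matrix, at 9.72, and Mlc1, Ncan and Sox2, which were under background in MEF and at least 380-fold, 115-fold and 78.7-fold higher in ciNPC. Against NPC, 1 of the 25 was higher, Id4 at 3.26, and none was lower, where 3.14% of genes were higher and 0.0515% lower. The median of the list was 2.93 against MEF and -0.42 against NPC, and over all genes it was -0.13 and -0.13. Between passages 2 of the 25 passed, Hes5 (1.12) and Mlc1 (1.02), both higher at p13, where 0.831% of all probes tested passed. Over all probes the passage calls fell from 296 to 3 under quantile normalisation and to 0 under eBayes without trend.

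Of 14 other intermediate filament and lamin genes, 2 were higher and 1 lower in ciNPC than in MEF. Over all genes 12.5% were higher and 12.5% lower. The higher ones were Lmnb1, the lamin B1 gene, at 3.34, and Nefl, a neurofilament gene under background in MEF, at least 5.70-fold. Lmna, the lamin A/C gene, was lower at -2.69. Against NPC 5 of the 14 were higher and none lower, where 3.14% of all genes were higher and 0.0515% lower. They were the keratin genes Krt18, at 5.46, Krt19, at least 15.4-fold, and Krt8, at least 4.42-fold, the muscle-type filament gene Des, at least 8.64-fold, and Lmna at 1.97. Krt8, Krt18 and Krt19 did not pass against MEF (0.53, 0.29 and -0.74). Beside them, 11 of 11 fibroblast markers were higher in ciNPC than in NPC and 10 of 11 were lower than in MEF, and their part in these values was not tested.

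Of 12 further fatty acid and retinoid binding protein genes, 6 were detected well enough to be tested. None was higher and 3 were lower in ciNPC than in MEF, where 12.5% of all genes were higher and 12.5% lower. The lower ones were Crabp2 at -3.67, Fabp4 at -3.37 and Crabp1 at -2.36, so these relatives of Fabp7 went the other way. Against NPC the same 3 genes were higher, where 3.14% of all genes were. Crabp1, a retinoic acid carrier, was under background in NPC and at least 45.7-fold higher in ciNPC, and Crabp2 was 1.34 higher. Fabp4, the adipocyte fatty acid-binding protein gene, passed on a probe that 2 of the 3 ciNPC arrays, and not the NPC array, measured above background.

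Of 15 genes listed with RNA-binding proteins, 5 were higher and 1 lower in ciNPC than in MEF. Over all genes 12.5% were higher and 12.5% lower. The list also holds Numb and Numbl, whose products are not RNA-binding proteins. Qk, the glial RNA-binding protein quaking, was 4.17 higher and the neuronal Elavl4 3.03 higher, and Elavl2 and Lin28b, under background in MEF, were at least 12.2-fold and 11.8-fold higher. Numbl, a partner of Numb in progenitor division, was lower at -1.72. Numbl was also the gene of this list that passed against NPC, where it was 1.23 higher. Of all genes, 3.14% were higher than in NPC.

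Of 15 tested genes of proteolipids and progenitor surface proteins, 1 was higher and 4 were lower in ciNPC than in MEF. Over all genes 12.5% were higher and 12.5% lower. Itga6, an integrin subunit that binds laminin, was higher at 3.54, and Alcam (-1.66), Itgb1 (-1.51) and Cspg4 (-1.21) were among the lower ones. Against NPC, Alcam (3.17), Pdgfra (2.24) and Cd44 (1.38) were higher and none was lower, where 3.14% of all genes were higher.

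**Figure D4:**
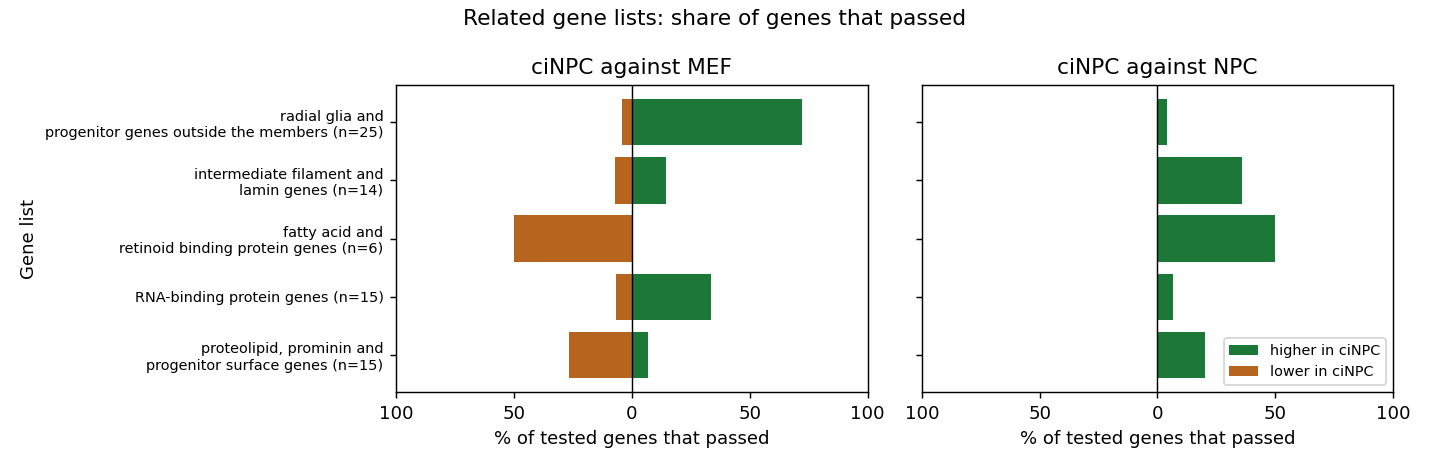
Share of the tested genes of each list (horizontal axis, percent) that were higher (green, to the right) or lower (brown, to the left) in ciNPC than in MEF (left panel) and than in NPC (right panel). The radial glia list has 18 of 25 genes to the right against MEF and 1 of 25 against NPC. The lipid and retinoid list has 3 of 6 to the left against MEF and 3 of 6 to the right against NPC.

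Markers of other cells that these cultures could hold were described in the same way. Over all genes 12.5% were higher and 12.5% lower in ciNPC than in MEF. Against NPC those shares were 3.14% and 0.0515%. Of 8 neuron markers, 5 were higher and 2 lower in ciNPC than in MEF, and the summed signal was 50.1 times the 75th percentile on MEF, 98.1 to 110 times on the ciNPC arrays and 181 times on NPC. Against NPC, 2 of the 8 were higher. Of 7 astrocyte markers 4 were higher than in MEF and none differed from NPC by the test, with sums of 4.20 on MEF, 133 to 137 on the ciNPC arrays and 196 on NPC. The 8 oligodendrocyte markers summed to between 2.79 and 3.36 on every array, although 1 of them was higher than in MEF and 1 higher than in NPC. Of 5 macrophage markers, 1 was lower than in MEF and 2 were higher than in NPC. Several members, such as Gpm6a, Gpm6b and Cd24a, are also expressed in neurons or astrocytes, and the part of such cells in the member values was not tested.

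The genes whose profile over the 5 arrays was most like that of a member were found by Euclidean distance between log2 values centred on their own mean. For members measured on all arrays 10765 named genes were compared, and 11091 for Gpm6a and Prom1. Fabp7 was nearest to Bcan (distance 0.15), then Rtn1 (0.37) and Fam181b (0.50). Gpm6b was nearest to Tnfrsf19 (0.08), and Bend4 (0.25) was also among its nearest. The nearest to Gpm6a were Grm5, Kcnd3 and Pipox, and to Prom1 they were Plvap, Rps6ka6 and Rapgef5. No distance is given for these, because the MEF value of both members was under background and their order of likeness rests partly on it.

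Among members with smaller steps, Nes was nearest to Zfp664, Slc25a27 and Adamts17 (0.08 to 0.09) and Msi2 to Khdrbs3, Shd and Necab2 (0.07 to 0.10). Cd24a was nearest to Arhgap21 (0.11), Tmem149 and Zfp629 (both 0.15). For the flat members the nearest genes were Ust, Paip1 and Plekha8 for Vim (all 0.05), Cdk5rap2, Sucla2 and Nob1 for Fabp5 (0.06 to 0.08) and Rell2, Dcxr and Rps6ka1 for Msi1 (0.15 to 0.16). These distances rest on 5 arrays, 3 of them of the same cell type, and say nothing of shared function.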

How the data were processed

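RNA of 5 mouse cell samples was measured on single-colour 60-mer arrays designed on mm9, per the file headers. The authors read the scans in Agilent Feature Extraction (version 10.7.1.1), per the submitters' processing notes, and the deposited processed signal of each spot is an intensity, corrected for background within the array and left unscaled across arrays. A value table was deposited as well, in log2 units (median 5.64 on each array, r 0.995 to 0.999 with the array's own signal); its normalisation step is not given in the sources used here, and it served as an alternative.

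Values analysed were log2 processed signal minus the array's 75th percentile, averaged over unflagged spots. Of 55681 probes, 35613 were tested, those well above background throughout MEF, ciNPC p5, ciNPC p13 or NPC. limma 3.58.1 in R 4.3.3 (lmFit, eBayes with trend) was fitted with 3 groups (2 residual degrees of freedom) and, for passages, 4 groups (1 residual degree of freedom). Spread came from the ciNPC arrays and was taken to hold for the single MEF and NPC arrays, and the number of arrays limits the precision. Fitting was tested on simulated data. Tables were made with pandas 2.3.3 in Python 3.11.15.

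Where a group was not well above background, folds are bounds against the lowest such signal of its array. Named were all members, up to 4 passing genes with the largest difference per list and comparison, and the 3 most alike genes per member, except for a result that is not reported here. The keratins against MEF and passage calls were named after their values were seen. Members and lists were chosen with earlier results of these data known. Alternatives covered background correction, scaling, probe filters, the fit, thresholds and single arrays left out.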

Additional observations from a re-analysis of the deposited data

Results flagged for a closer look

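Both Msi1 probes had p5 on one side of a control and both p13 arrays on the other. On probe A_51_P296866, p5 lay 0.34 under MEF (log2 difference -0.34) and p13 averaged 0.28 above it. On probe A_55_P2062688, p5 was at -0.04 and p13 at 1.04 relative to MEF, and relative to NPC p5 was at -0.38 and p13 at 0.69. The difference between passages is the p13 against p5 comparison, which did not pass on either probe (adjusted p = 0.170 and 0.427 in limma). Both probes are among the dimmer of the members, with processed signals of 274 to 428 and 61.0 to 105 across the 5 arrays.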

How the results depend on the processing

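The count of members higher than in MEF was 7 under all alternatives run, apart from 5 when probes had to be well above background on all 5 arrays and 6 at 4-fold, and 7 with any single ciNPC array left out. No member passed against NPC or between passages under any alternative with a test. Against NPC the adjusted p of Cd24a (0.0689) fell under 0.05 with normexp (0.0411), with no filter on dim probes (0.0289), with 4 groups and without ciNPC p5, each time under 2-fold. Under eBayes without trend, 0 of all 35613 probes passed between passages, and 3 under quantile normalisation, against 296 in the main analysis. Of all probes, 972 were higher and 19 lower than in NPC. The alternatives gave 329 (eBayes without trend) to 1574 higher and 11 (eBayes without trend) to 277 lower, with the highest counts without ciNPC p13 replicate 2. NPC was at least 4-fold over MEF on 7 member probes, and 4 at 8-fold. Of 369 single values with a test under alternatives, 360 kept their direction and side of the threshold and 9 changed sign, none of which had passed. The 24 passage values with 1 p13 array left out had no test, and 4 of them changed sign. The cause was not tested. Against MEF these were Vim under quantile normalisation (0.28) and in the deposited table (0.27), and Msi1 A_51_P296866 without ciNPC p13 replicate 1 (-0.14). Against NPC they were Msi1 A_51_P296866 with the percentile over detected probes (0.0037) and without ciNPC p5 (0.078; from -0.35 to 0.078 with single arrays left out), and Fabp5 under quantile normalisation (0.013) and in the deposited table (0.011). Between passages they were Prom1 A_52_P402786 with normexp background correction (0.093) and Fabp5 with the percentile over detected probes (0.0089). Without p13 replicate 1 they were also Prom1 A_52_P402786 (0.28) and A_55_P2059931 (0.012), and without p13 replicate 2 Fabp5 (0.070) and Gpm6b (0.040). That percentile moved the median of all probes against MEF from -0.09 to 0.06 and against NPC from -0.12 to 0.01, and left 10 of 12 members under NPC in place of 11. Quantile normalisation moved the passage median from 0.12 to -0.05. No paired analysis was possible because only the p13 arrays carry replicate numbers. Signal over background limits the values of 6 of the 60 member spots, and no spot was saturated.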
